A study of Mus musculus with 20 samples.

Results

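The genes described here encode 10 guanine nucleotide exchange factors for the small GTPases Ras and Rap: Rasgrp1, Rasgrp2, Rasgrp3, Rasgrp4, Rapgef1, Rapgef2, Rapgef5, Rapgef6, Rasgef1b and Sos1. They are 10 of the 78409 genes listed in the data, of which 34373 had a count in at least 1 library. They were selected on their gene family, with the levels and fold changes in these same libraries already known. Their values are therefore a description and carry no p-value, and the sources used here give no threshold by which a gene was taken or left out.

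The study asked how RNY1, a small noncoding Y RNA found in airway fluid, affects the way that fluid programmes macrophages. Bone marrow-derived macrophages (BMDMs) from wild-type female C57BL/6J mice were given PBS or a fraction of bronchoalveolar lavage fluid (BALF), and their polyadenylated RNA was sequenced from the 3′ end. The donors of the fluid had airway inflammation from challenge with ovalbumin (OVA) and were either RNY1+/+ or RNY1-/-, the latter made with CRISPR. The 5 groups of 4 libraries were PBS, RNY1+/+ EVFx, RNY1-/- EVFx, RNY1+/+ ProteinFx and RNY1-/- ProteinFx, where EVFx is the fraction enriched in extracellular vesicles and ProteinFx the fraction enriched in protein. The genotype is thus that of the fluid donor in every group, and no macrophage lacked RNY1. EVFx was added at 35000000 particles per µL and ProteinFx at 0.75 µg of protein per µL, after 5 days of storage in the cold, to cells on day 7 of culture that had been washed 3 times and moved to serum-free medium. Mice were between 7 and 16 weeks old, and the RNY1-/- line came from another vendor than the C57BL/6J mice, so vendor and donor genotype cannot be told apart. PBS was the control for both fractions, and no fluid from unchallenged mice was included. The length of the treatment is not given in the sources used here, nor is it said whether libraries of the same group had their own pool, mouse or well, so the errors below measure the spread between these libraries, which may be technical.

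Ras and Rap switch between an inactive form bound to GDP and an active form bound to GTP, and exchange factors switch them on by letting GDP go. In macrophages, Ras proteins feed the ERK kinases downstream of growth factor and pattern recognition receptors, while Rap proteins regulate integrins, adhesion and phagocytosis. The exchange factors differ in what brings them to the membrane. Most RasGRP proteins bind diacylglycerol, Sos1 is carried by the adaptor Grb2, and Rapgef1 is carried by the Crk adaptors. Rapgef2 and Rapgef6 are closely related proteins with a PDZ domain.

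Start-site sequences of the genes were read from RefSeq (GRCm38.p6), as windows from 250 bases before to 50 bases after a start, and 9 of the 10 genes matched, with 13 windows. Rasgrp4 was not matched. Of 5 motifs of macrophage and signal-responsive transcription factors searched on both strands, PU.1 (GAGGAAGT) was found in windows of 2 genes and kappaB in that of 1 gene. The 3 matches are shown because they are all that were found, and their part in the levels below was not tested. The motif is in capitals.
Rasgrp3, PU.1, plus strand of chr17:75435844-75435873, motif starting at position -50 from the start site: ggaaagaatagGAGGAAGTgggcctgccat
Rapgef5, PU.1, plus strand of chr12:117516457-117516486, motif starting at position -58: atgaataaaggGAGGAAGTgacatcacagt
Rasgrp2, kappaB, plus strand of chr19:6399770-6399799, motif starting at position -95, where a match on the other strand overlaps it: gggcgagaggGGGAGTCCCCggtggaggag
Across 32851 RefSeq windows of the same length, 3.20% held the PU.1 letters and 4.51% a kappaB match. Counted by gene, this was 3.69% and 5.14% of 27025 genes. No window of the members held AP-1 (TGANTCA, in 7.81% of the windows), CRE (TGACGTCA, in 1.79%) or ISRE (GAAA, any 2 bases and GAAA again, in 3.44%). These are matches of letters and nothing was measured here on binding.

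Libraries held from 2510005 to 8277366 counts, the lowest being RNY1-/- ProteinFx replicate 3, and levels below are in CPM, a gene's counts scaled to a common library total. Within RNY1-/- ProteinFx the libraries fell into pairs: replicates 1 and 2 differed by 3.50 times the variance expected from counting and replicates 3 and 4 by 2.57 times, against 13.3 to 15.7 times across the pairs. PBS replicate 3 differed from the other PBS libraries by 16.8 to 34.8 times. The 8 macrophage markers were detected in every group, with Lyz2 the highest, and their members differed in direction. Adgre1 averaged 859 CPM in PBS and 2422 to 3203 CPM in the treated groups, whereas Lyz2 averaged 8416 CPM in PBS and 4578 to 5333 CPM, Cd68 1561 CPM and 742 to 1119 CPM, and Csf1r 275 CPM and 159 to 239 CPM. Fcgr1 averaged 127 CPM in PBS and 157 to 553 CPM in the treated groups. Itgam, Mertk and Cd14 averaged 164, 103 and 120 CPM in PBS. In the EVFx groups these were at 88.5 to 96.3, 53.7 to 69.0 and 169 to 287 CPM. In the ProteinFx groups they were at 336 to 410, 124 to 130 and 78.5 to 117 CPM. The 8 macrophage markers summed to 8990 to 12968 CPM over the PBS libraries and 8620 to 10819 CPM over the treated ones. The 8 neutrophil markers, led by S100a8, summed to 340 to 367 CPM in PBS, 171 to 227 CPM in RNY1+/+ EVFx, 208 to 285 CPM in RNY1-/- EVFx, 252 to 373 CPM in RNY1+/+ ProteinFx and 285 to 424 CPM in RNY1-/- ProteinFx, with Ly6g at 0 in all but RNY1+/+ ProteinFx (0.0479 CPM). Their part in the results below was not tested.

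Against PBS, the family moved in both directions. Rasgrp1 went from at most 2 counts per library to a clearly measured level, Rapgef2 and Rapgef5 were higher, and Rasgrp3 and Rasgrp2 were lower. The limits used across the whole table were an edgeR quasi-likelihood adjusted p under 0.05 and a log2 fold change beyond 1 in either direction, and a gene that met both is referred to as called. In RNY1+/+ EVFx, 6 of the 9 members that passed the filter on low counts were called, 4 higher and 2 lower, where 16.4% of the genes tested were called (8.24% higher and 8.19% lower). In RNY1-/- EVFx, 5 of 9 were called, 3 higher and 2 lower, against a background of 22.5% (9.01% and 13.5%). In RNY1+/+ ProteinFx, 5 of 9 were called, 3 higher and 2 lower, against 21.3% (8.96% and 12.4%). In RNY1-/- ProteinFx, 3 of 8 were called, 1 higher and 2 lower, against 14.3% (6.31% and 7.99%). The 4 comparisons share the PBS libraries, and the members were chosen with these values known, so nothing is read from the counts. Scaled by total counts instead of TMM, all called genes went from 890 higher and 884 lower to 738 and 1223 in RNY1+/+ EVFx, from 967 and 1449 to 698 and 2138 in RNY1-/- EVFx, and from 971 and 1340 to 774 and 1847 in RNY1+/+ ProteinFx, with shifts of the median of all genes from -0.03 to -0.21, -0.27 and -0.20. Rasgrp1 passed the filter through the treated libraries and Rasgrp2 through the PBS libraries, so that a difference was needed for them to be counted. By adjusted p alone, whatever the fold change, the members passing were 8, 9, 8 and 6 in the same order, against backgrounds of 44.5%, 58.3%, 55.2% and 35.7%.

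**Figure D1:**
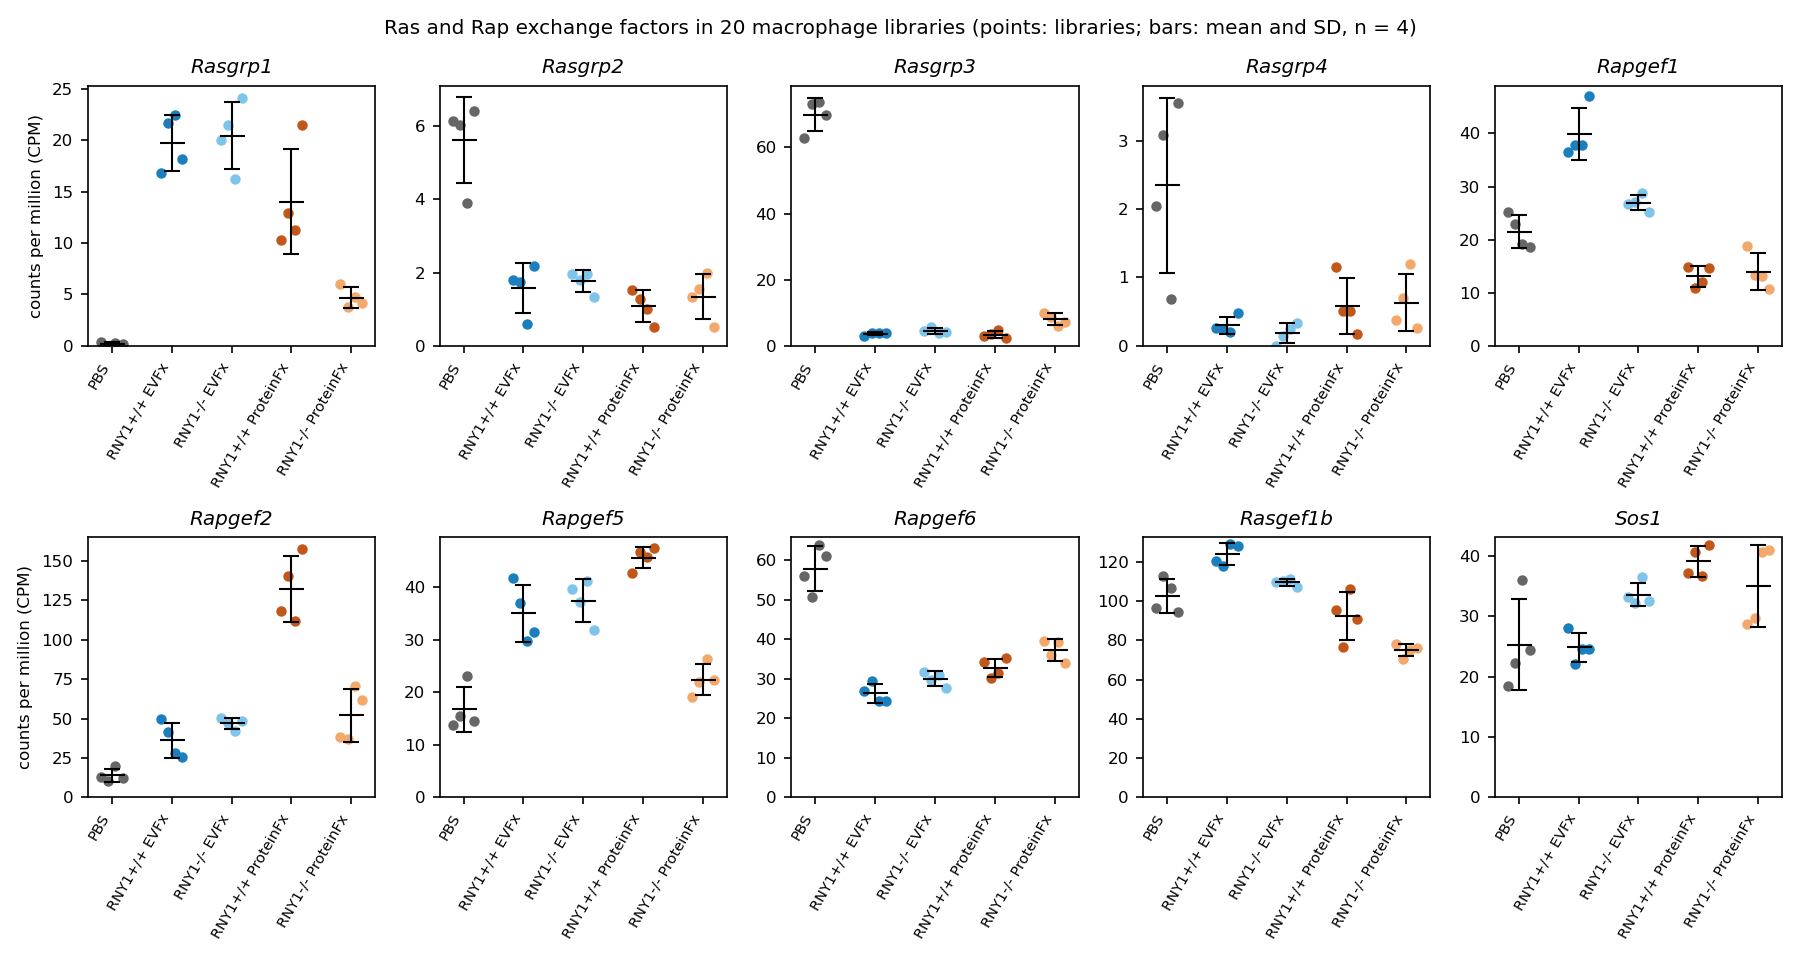
Level of each of the 10 exchange factors in CPM (linear axis from 0), with a point for each library and bars for the mean and SD of the 4 libraries of a group. Rasgrp1 is near 0 in PBS and averages 20.4 CPM in RNY1-/- EVFx, whereas Rasgrp3 averages 69.9 CPM in PBS and at most 8.02 CPM in a treated group.

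Rasgrp1 (ENSMUSG00000027347), an exchange factor for Ras best known from T cell receptor signalling, was at 0.410, 0, 0.229 and 0.178 CPM in the 4 PBS libraries. These stand for 0 to 2 counts, at or under the 3 counts per library taken as the floor of measurement. It was at 16.8, 21.6, 22.4 and 18.1 CPM in RNY1+/+ EVFx and at 20.0, 21.4, 16.3 and 24.1 CPM in RNY1-/- EVFx. The EVFx groups overlapped each other and lay entirely above PBS. In RNY1+/+ ProteinFx the libraries were at 10.3, 12.9, 11.3 and 21.5 CPM, the last of them within the EVFx range. In RNY1-/- ProteinFx they were at 6.05, 3.78, 4.78 and 4.15 CPM, below each library of the other 3 treated groups. Over the 4 counts of the PBS group as a whole, the ratio of pooled CPM was 104 in RNY1+/+ EVFx (95% exact counting interval 40.4 to 383), 111 in RNY1-/- EVFx (43.0 to 408), 77.3 in RNY1+/+ ProteinFx (29.9 to 286) and 24.7 in RNY1-/- ProteinFx (9.30 to 92.6). These intervals cover counting error only. Rasgrp1 was not tested against PBS in RNY1-/- ProteinFx, where its mean over the libraries was under 3 CPM. Bulk RNA cannot tell fewer cells of a type from less RNA per cell. The 8 T cell markers summed to 2.74 to 9.43 CPM in PBS, 2.17 to 4.38 CPM in RNY1+/+ EVFx, 1.18 to 2.101 CPM in RNY1-/- EVFx, 0.868 to 1.91 CPM in RNY1+/+ ProteinFx and 0.259 to 4.48 CPM in RNY1-/- ProteinFx. In each group only 1 of the 8 exceeded 3 counts in a library. Cd4 was the highest, at 5.18 CPM in PBS and 0.987 to 3.28 CPM in the treated groups. Cd2 was at 0 in every group, and the part of T cells in the Rasgrp1 levels was not tested.

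Rasgrp3 (ENSMUSG00000071042), which acts on both Ras and Rap, went the other way and was highest in PBS. The PBS libraries were at 62.9, 73.2, 73.9 and 69.8 CPM. RNY1+/+ EVFx stood at 3.10, 4.00, 3.80 and 3.99 CPM, and RNY1-/- EVFx at 4.47, 5.81, 3.94 and 4.04 CPM. No treated library came near PBS. RNY1+/+ ProteinFx stood at 2.87, 3.55, 4.78 and 2.43 CPM, and RNY1-/- ProteinFx at 10.01, 8.81, 5.98 and 7.26 CPM. The RNY1-/- ProteinFx libraries were above those of the other 3 treated groups, which overlapped one another. The log2 fold changes against PBS were -4.05 (SE 0.13) in RNY1+/+ EVFx, -3.68 (SE 0.14) in RNY1-/- EVFx, -4.22 (SE 0.18) in RNY1+/+ ProteinFx and -3.02 (SE 0.15) in RNY1-/- ProteinFx. The treated values rest on 14 to 63 counts per library. The 5 B cell markers, a cell type in which Rasgrp3 is also known, summed to between 1.04 and 4.34 CPM over the 20 libraries.

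Rasgrp2 (ENSMUSG00000032946), a calcium-responsive activator of Rap best known from platelets, was low in every group. The PBS libraries were at 6.15, 6.02, 3.89 and 6.41 CPM, and the 16 treated libraries were between 0.519 and 2.17 CPM, below each PBS library. The treated groups overlapped one another, with group means from 1.08 to 1.77 CPM. Log2 fold changes against PBS were -1.58 (SE 0.30) in RNY1+/+ EVFx, -1.43 (SE 0.25) in RNY1-/- EVFx, -2.22 (SE 0.32) in RNY1+/+ ProteinFx and -2.02 (SE 0.32) in RNY1-/- ProteinFx. In RNY1+/+ ProteinFx, leaving out PBS replicate 1, 2 or 4 took the gene under the minimum of 3 CPM and out of the test. The 4 megakaryocyte and platelet markers summed to at most 0.307 CPM in a PBS library and at most 0.616 CPM in a treated library. Gp9 was at 0 in every group, and Itga2b was at 0 in PBS and averaged 0.126 to 0.165 CPM in the treated groups.

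Rasgrp4 (ENSMUSG00000030589), an exchange factor for Ras found in mast cells and other myeloid cells, did not pass the filter in any comparison. It was at 2.05, 3.09, 0.686 and 3.56 CPM in PBS, and at 0 to 0.336 CPM in RNY1-/- EVFx, where no library exceeded 2 counts. The pooled CPM of PBS over that of RNY1-/- EVFx was 15.1 (95% exact counting interval 5.56 to 57.5), from 53 and 4 counts. The other treated groups averaged 0.298 CPM in RNY1+/+ EVFx, 0.583 CPM in RNY1+/+ ProteinFx and 0.633 CPM in RNY1-/- ProteinFx, and both ProteinFx groups overlapped PBS, which had its lowest value in replicate 3. Of 8 mast cell and basophil markers, Mcpt4, Tpsb2 and Fcer1a were at 0 in every group, and Kit averaged 0.523 CPM in PBS and 0.0957 to 0.352 CPM in the treated groups. The 8 summed to 0.618 to 2.17 CPM in PBS, 0.129 to 1.00 CPM in RNY1+/+ EVFx, 0.447 to 1.97 CPM in RNY1-/- EVFx, 0 to 1.15 CPM in RNY1+/+ ProteinFx and 0.189 to 0.797 CPM in RNY1-/- ProteinFx, and their part in the Rasgrp4 levels was not tested.

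Rapgef2 (ENSMUSG00000062232), an activator of Rap, had its highest level in RNY1+/+ ProteinFx. It was at 13.1, 10.4, 19.9 and 12.1 CPM in PBS, the highest in replicate 3. It stood at 49.4, 41.1, 28.4 and 25.9 CPM in RNY1+/+ EVFx and at 50.2, 46.9, 42.2 and 48.7 CPM in RNY1-/- EVFx. These groups overlapped each other and lay above PBS. In RNY1+/+ ProteinFx the libraries reached 118, 140, 112 and 157 CPM, above each of the other 16 libraries. In RNY1-/- ProteinFx they were at 38.5, 36.7, 70.7 and 62.0 CPM, the same pairs as in the whole transcriptome, and overlapped both EVFx groups. Log2 fold changes against PBS were 1.58 (SE 0.25), 2.02 (SE 0.18), 3.44 (SE 0.20) and 1.98 (SE 0.28) for RNY1+/+ EVFx, RNY1-/- EVFx, RNY1+/+ ProteinFx and RNY1-/- ProteinFx. Its counts were fractional in 18 of the 20 libraries, since reads that map to several places were shared out, and its level is uncertain to that extent. The other members had fractional counts in at most 4 libraries.

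Rapgef5 (ENSMUSG00000041992), another activator of Rap, was at 13.7, 15.4, 23.1 and 14.6 CPM in PBS, again highest in replicate 3. It was at 41.8, 36.9, 29.8 and 31.4 CPM in RNY1+/+ EVFx and at 39.7, 37.1, 41.1 and 31.8 CPM in RNY1-/- EVFx. The EVFx groups overlapped and both were above PBS. RNY1+/+ ProteinFx was highest, at 42.7, 46.6, 45.7 and 47.4 CPM, whereas RNY1-/- ProteinFx, at 19.1, 22.0, 26.3 and 22.3 CPM, was the treated group that overlapped PBS. The log2 fold change against PBS was 1.25 (SE 0.18) in RNY1+/+ EVFx, 1.41 (SE 0.16) in RNY1-/- EVFx, 1.63 (SE 0.16) in RNY1+/+ ProteinFx and 0.49 (SE 0.19) in RNY1-/- ProteinFx, the last of which was not called.

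Rapgef6 (ENSMUSG00000037533), the close relative of Rapgef2, did not follow it. It was at 55.9, 50.8, 63.8 and 61.2 CPM in PBS and between 24.4 and 39.7 CPM in the 16 treated libraries, below PBS in each of them. Neighbouring treated groups overlapped, in the order RNY1-/- ProteinFx, RNY1+/+ ProteinFx, RNY1-/- EVFx and RNY1+/+ EVFx from the highest mean (37.3 CPM) to the lowest (26.3 CPM). The log2 fold changes against PBS ran from -0.96 (SE 0.12) in RNY1+/+ EVFx to -0.57 (SE 0.12) in RNY1-/- ProteinFx and stayed inside the limit of 1. That limit decided the call. Scaled by total counts, with the median of all genes at -0.21, the RNY1+/+ EVFx value was -1.13 and was called, as was the RNY1-/- EVFx value of -1.01 once trends with GC content and length were removed.

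Rapgef1 (ENSMUSG00000039844), the activator of Rap carried by Crk, moved apart between the fractions. It was at 25.2, 22.9, 19.2 and 18.7 CPM in PBS and at 36.6, 37.8, 37.8 and 47.1 CPM in RNY1+/+ EVFx, the highest group. In RNY1-/- EVFx it was at 26.8, 27.1, 28.8 and 25.2 CPM, above PBS by a narrow margin. RNY1+/+ ProteinFx stood at 14.9, 10.9, 12.1 and 14.6 CPM, below each PBS library, and RNY1-/- ProteinFx at 18.9, 13.3, 13.1 and 10.6 CPM, overlapping PBS. Its log2 fold change against PBS was 1.07 (SE 0.13) in RNY1+/+ EVFx, 0.56 (SE 0.13) in RNY1-/- EVFx, -0.53 (SE 0.16) in RNY1+/+ ProteinFx and -0.55 (SE 0.19) in RNY1-/- ProteinFx. The call in RNY1+/+ EVFx was lost without replicate 4 of that group (0.98) and when scaled by total counts (0.89, with the median of all genes at -0.21). Its transcripts have the highest GC content among the members, at 56.2%. With GC and length trends removed, the values were 1.14, 0.98, -0.12 and -0.16 in the same order.

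Rasgef1b (ENSMUSG00000089809), an exchange factor for Rap known to be induced by Toll-like receptor ligands in macrophages, and Sos1 (ENSMUSG00000024241), the exchange factor that links receptor tyrosine kinases to Ras, differed little between groups. Rasgef1b averaged 103 ± 8.62 CPM (SD, n = 4) in PBS, 124 ± 5.63 CPM in RNY1+/+ EVFx, 110 ± 1.80 CPM in RNY1-/- EVFx, 92.4 ± 12.3 CPM in RNY1+/+ ProteinFx and 75.0 ± 3.19 CPM in RNY1-/- ProteinFx. Its RNY1+/+ EVFx libraries, at 118 to 129 CPM, were above PBS, and its RNY1-/- ProteinFx libraries, at 70.6 to 78.2 CPM, were below PBS. Sos1 averaged 25.2 ± 7.52 CPM in PBS, 24.8 ± 2.40 CPM in RNY1+/+ EVFx, 33.6 ± 1.97 CPM in RNY1-/- EVFx, 39.0 ± 2.53 CPM in RNY1+/+ ProteinFx and 35.0 ± 6.72 CPM in RNY1-/- ProteinFx. PBS replicate 3 held the highest PBS value of Sos1, 35.9 CPM, against 18.4 to 24.4 CPM in the others. Without it, Sos1 in RNY1+/+ ProteinFx moved from a log2 fold change of 0.81 (SE 0.18) to 1.01 and was called.

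**Figure D2:**
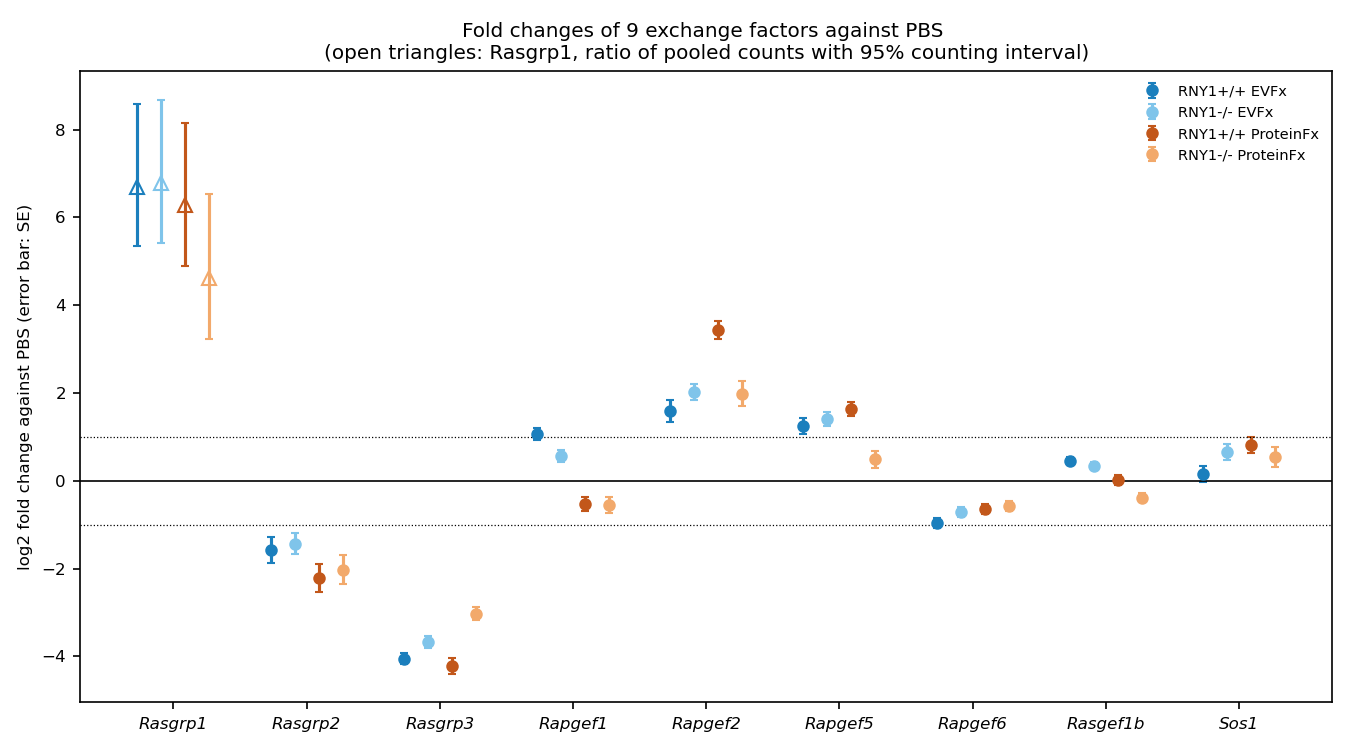
Log2 fold change against PBS (vertical axis) of the 9 members that passed the filter in at least 1 comparison, for the 4 treated groups, with the SE as error bar and dotted lines at the limits of 1 and -1. Open triangles give Rasgrp1 as the log2 ratio of pooled CPM with its 95% counting interval, above the other members in each group, Rasgrp3 is the lowest in each group and Rapgef2 reaches 3.44 in RNY1+/+ ProteinFx.

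The fractions were compared directly within RNY1+/+ donors, as RNY1+/+ ProteinFx against RNY1+/+ EVFx, with the reservation that doses were set by particles in one and by protein in the other. Rapgef2 was higher in ProteinFx (log2 fold change 1.86, SE 0.17) and Rapgef1 was lower (-1.58, SE 0.13). The groups did not overlap for these or for Rapgef5, Rapgef6, Rasgef1b and Sos1. For this comparison too, the share of all genes without overlap was not computed, so nothing is read from it. Rapgef1 was at -1.24 with GC and length trends removed. Rapgef2 and Rapgef1 were the 2 members called of the 8 tested, against 13.5% of all genes (6.71% higher and 6.82% lower). Rasgrp1 was at -0.45 (SE 0.20), Rapgef5 at 0.38 (SE 0.11), Rapgef6 at 0.32 (SE 0.10) and Sos1 at 0.66 (SE 0.10). By adjusted p alone 6 of 8 members passed, with a background of 63.3%.

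The comparison of RNY1-/- with RNY1+/+ fractions asked what differed with the genotype of the donor, which cannot be told apart from its vendor. In ProteinFx, 4 of the 8 members tested were called, 3 lower and 1 higher, where 1.82% of all genes were called (1.17% lower and 0.659% higher). Scaled by total counts, all called genes went from 69 higher and 122 lower to 101 and 99, and the same 4 members were called. Rasgrp1 had a log2 fold change of -1.70 (SE 0.27), Rapgef2 of -1.45 (SE 0.22), Rapgef5 of -1.13 (SE 0.13) and Rasgrp3 of 1.21 (SE 0.24). In all 4 the groups did not overlap. The share of all genes without overlap was not computed. Each of the 4 members called was nearer to its PBS level in RNY1-/- ProteinFx than in RNY1+/+ ProteinFx. How many of all genes called here did the same was not computed. Against PBS, 14.3% of all genes were called in RNY1-/- ProteinFx and 21.3% in RNY1+/+ ProteinFx, so this is not read as a trait of the members. The other members tested were between -0.39 (SE 0.12, Rasgef1b) and 0.09 (SE 0.12, Rapgef6). By adjusted p alone the same number of members, 4, passed, with a background of 5.57%.

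These values were taken again without the pairs of libraries into which RNY1-/- ProteinFx fell. Without replicates 1 and 2, Rasgrp1 was at -1.72 (SE 0.37) and Rapgef2 at -1.04 (SE 0.15) and both were called, whereas Rapgef5 at -0.96 (SE 0.14) and Rasgrp3 at 0.98 (SE 0.31) were not. Without replicates 3 and 4, Rasgrp1 was at -1.71 (SE 0.32), Rapgef2 at -1.95 (SE 0.15), Rapgef5 at -1.28 (SE 0.12) and Rasgrp3 at 1.36 (SE 0.25), and each was called. The size for Rapgef2 thus depended on which pair was kept. Of all genes, 1.73% were called without replicates 1 and 2 and 3.86% without replicates 3 and 4, against 1.82% with all 8 libraries. By adjusted p alone these shares were 8.33%, 27.7% and 5.57%. Leaving out single libraries ended 1 call, that of Rasgrp3 without RNY1+/+ ProteinFx replicate 4 (1.07, SE 0.26). Rasgrp1 was at -1.38 (SE 0.22) without that same library, which held its highest ProteinFx value.

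**Figure D3:**
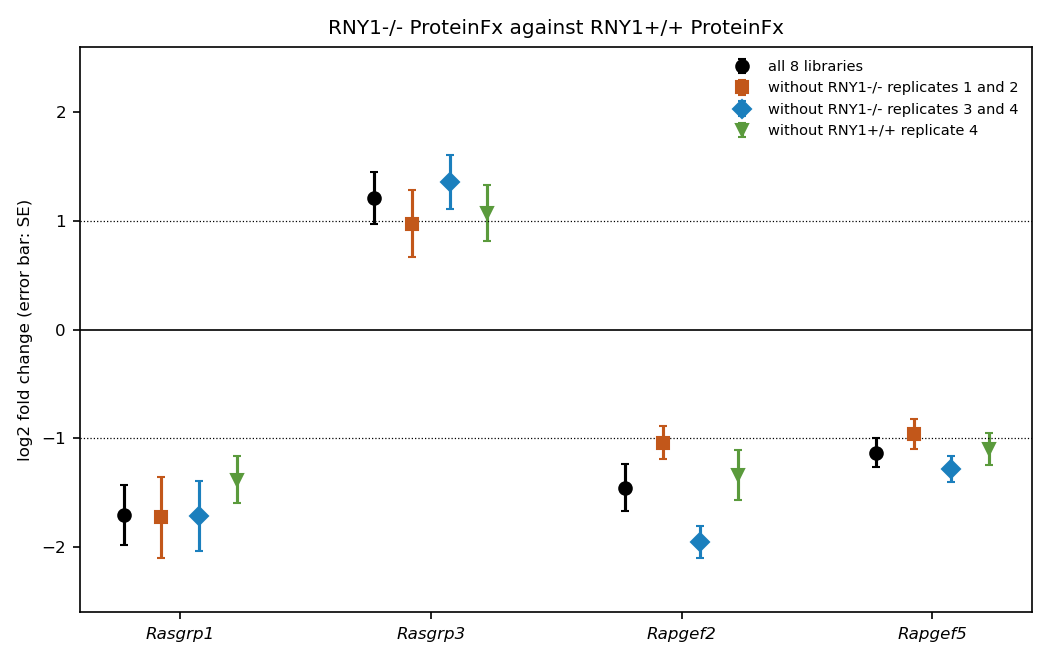
Log2 fold change of RNY1-/- ProteinFx against RNY1+/+ ProteinFx (vertical axis, SE as error bar) for Rasgrp1, Rasgrp3, Rapgef2 and Rapgef5 with all 8 libraries and with libraries left out, and dotted lines at 1 and -1. Rapgef2 ranges from -1.95 to -1.04, while each gene keeps its side of 0.

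In EVFx, none of the 8 members tested was called by edgeR or by DESeq2, where 2.35% of all genes were called (1.98% lower and 0.378% higher). At an unadjusted p under 0.05 there were 4, and the same number passed by adjusted p whatever the fold change, against a background of 52.1%. Sos1 was at 0.50 (SE 0.09), Rapgef2 at 0.44 (SE 0.17), Rasgrp3 at 0.38 (SE 0.19), Rapgef6 at 0.26 (SE 0.09) and Rapgef1 at -0.50 (SE 0.10). In CPM, without TMM scaling, the groups did not overlap for Sos1, higher in RNY1-/- EVFx, or for Rapgef1 and Rasgef1b, both lower there. The fitted log2 fold change of Rasgef1b was -0.11 (SE 0.07), which did not pass by adjusted p. How many of all genes were without overlap here was not computed. In this comparison the fold changes of 10019 genes followed GC content, with a Spearman rho of -0.654 across genes, given as a description since genes are not replicates. With GC and length trends removed, Sos1 was at 0.10, Rapgef2 at 0.37, Rasgrp3 at 0.18, Rapgef6 at -0.04 and Rapgef1 at -0.16. The same rho was -0.0934, -0.424, -0.458 and -0.495 for RNY1+/+ EVFx, RNY1-/- EVFx, RNY1+/+ ProteinFx and RNY1-/- ProteinFx against PBS, and -0.493 between the fractions of RNY1+/+ donors. Between genotypes in ProteinFx it was 0.156, and the 4 called members moved little, to -1.68 for Rasgrp1, -1.47 for Rapgef2, -1.10 for Rapgef5 and 1.28 for Rasgrp3.

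As a description of the difference between these genotype effects, the log2 change in ProteinFx minus that in EVFx was -1.91 (SE 0.31) for Rapgef2, -1.85 (SE 0.32) for Rasgrp1, -1.30 (SE 0.17) for Rapgef5, -0.78 (SE 0.18) for Sos1 and 0.84 (SE 0.29) for Rasgrp3. The value of Sos1 rested in good part on EVFx, where it was 0.50, with -0.26 (SE 0.16) in ProteinFx. That EVFx value was smaller with GC and length trends removed, as given above. None of these differences was fitted with the trends removed.

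**Figure D4:**
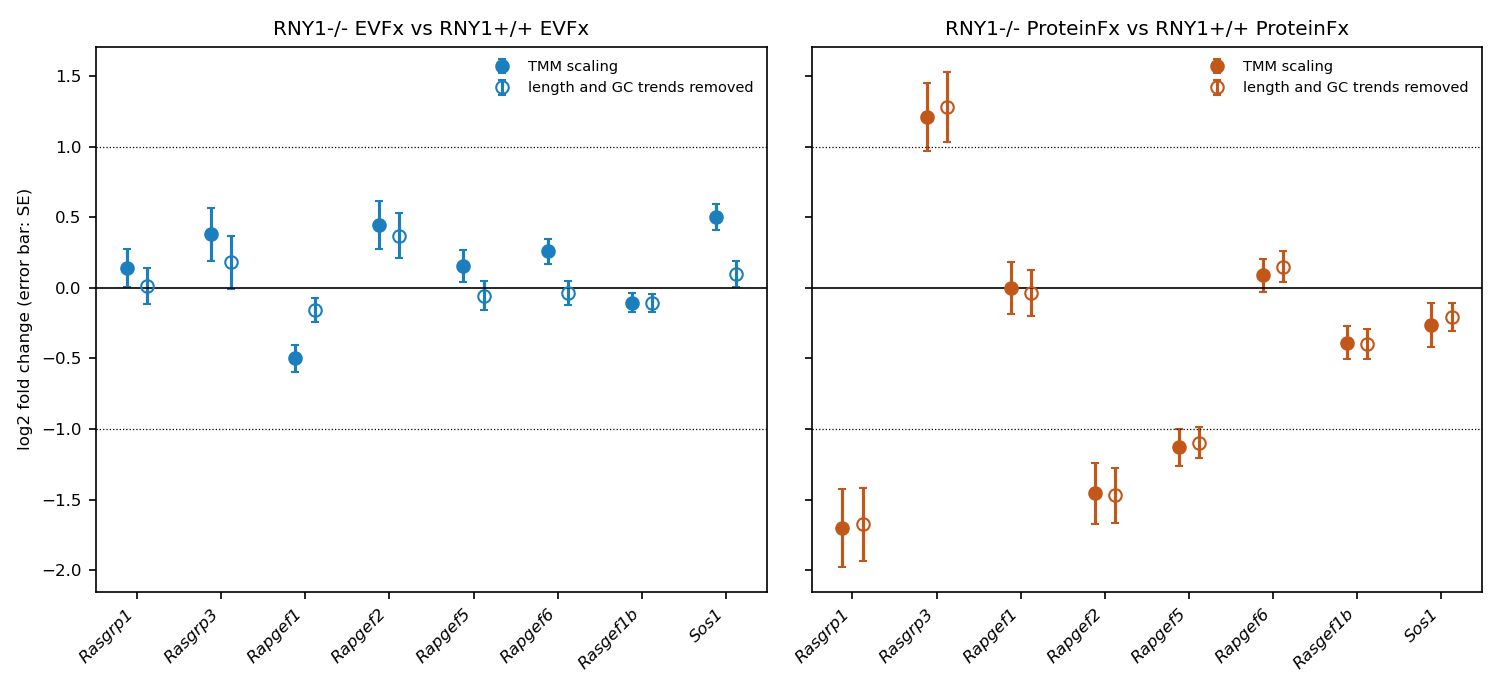
Log2 fold change of RNY1-/- against RNY1+/+ fractions (vertical axis, SE as error bar) for the 8 members tested, in EVFx on the left and ProteinFx on the right, with filled circles for TMM scaling, open circles with GC and length trends removed, and dotted lines at 1 and -1. In EVFx the values lie between -0.50 and 0.50 and most shift toward 0 when the trends are removed, and in ProteinFx Rasgrp1, Rapgef2, Rapgef5 and Rasgrp3 lie beyond the limits in both.

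The genes whose levels followed the members most closely were sought for the 3 members averaging 10 CPM or more with the widest range of group means, among 7552 genes with at least 10 CPM, by Pearson r of TMM-scaled log2 CPM over the 20 libraries. The libraries share their groups, so these values reflect the treatments above all. Rasgrp1 was followed by Sod2 (r = 0.992), the mitochondrial superoxide dismutase, by Cebpb (0.990), a myeloid transcription factor, and by Tlr1 (0.989), a Toll-like receptor. Rasgrp3 was followed by Pcp4l1 (0.974), Igfbp4 (0.966), a binding protein of insulin-like growth factors, and Serpinb6a (0.964), a protease inhibitor. Rapgef2 was followed by Gpsm2 (0.981), Cyfip1 (0.981), a regulator of actin, and Lacc1 (0.978).

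The rest of the pathway was followed in 86 genes of 8 lists. These genes encode the GTPases themselves, other exchange factors and GTPase-activating proteins that switch the GTPases off. Others encode adaptors, enzymes of diacylglycerol, effectors and feedback inhibitors of ERK. None of the 86 is a member, and passing means both limits given above, by edgeR. In RNY1+/+ EVFx, 14 of 65 tested passed (4 rose and 10 fell), with a median log2 fold change of 0.06 against -0.03 for all genes. In RNY1-/- EVFx, 16 of 63 passed (6 rose and 10 fell), with a median of -0.04 against -0.03. In RNY1+/+ ProteinFx, 11 of 65 passed (5 rose and 6 fell), with a median of 0.03 against -0.03. In RNY1-/- ProteinFx, 7 of 65 passed (1 rose and 6 fell), with a median of -0.05 against -0.03. These shares, of 21.5%, 25.4%, 16.9% and 10.8%, stand beside 16.4%, 22.5%, 21.3% and 14.3% of all genes. Without RNY1-/- ProteinFx replicates 1 and 2 the last count was 13, and without replicates 3 and 4 it was 3.

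Of the 6 Ral exchange factors, some of which Ras itself recruits, 5 were tested. In RNY1+/+ EVFx 2 passed (1 rose and 1 fell), and in RNY1+/+ ProteinFx 3 passed (2 rose and 1 fell). Ralgds went from 27.1 ± 6.44 CPM (SD, n = 4) in PBS to 73.3 ± 5.02 CPM in RNY1+/+ EVFx (log2 fold change 1.61, SE 0.16, edgeR adjusted p = 1.35e-05) and rose by 1.49 in RNY1+/+ ProteinFx (adjusted p = 4.15e-05). Rgl1 rose from 63.5 ± 8.41 to 207 ± 16.3 CPM in RNY1+/+ ProteinFx (1.87, SE 0.12, adjusted p = 3.25e-07). Of 13 effectors tested, 2 passed in RNY1+/+ EVFx and 2 in RNY1+/+ ProteinFx, 1 in each direction both times. Map2k1, the kinase that activates ERK, rose in RNY1+/+ ProteinFx (1.33, SE 0.12, adjusted p = 4.42e-06), while Mapk3, which encodes an ERK, fell there (-2.02, SE 0.34, adjusted p = 0.000512). Mapk3 averaged 26.1 ± 12.5 CPM in PBS, a wide spread, and 5.78 ± 0.75 CPM in RNY1+/+ ProteinFx. In RNY1-/- EVFx its fall of -1.48 (SE 0.33, adjusted p = 0.00282) was not called once GC and length trends were removed (-0.89), and in RNY1-/- ProteinFx its fall of -1.58 (SE 0.36, adjusted p = 0.00783) was not called without replicates 3 and 4 of that group (-1.36). The GTPase-activating protein Rasa4 rose in RNY1+/+ EVFx (1.40, SE 0.14, adjusted p = 1.16e-05).

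Of 11 adaptors, 3 fell and none rose in each EVFx group, and 1 fell in each ProteinFx group. Gab1, a docking protein of growth factor receptors, fell from 18.7 ± 2.02 CPM in PBS to 4.51 ± 0.502 CPM in RNY1+/+ EVFx (-1.87, SE 0.15, adjusted p = 2.68e-06), and Gab3 fell there too (-1.28, SE 0.20, adjusted p = 0.00032). In RNY1-/- EVFx, Gab1 fell by 1.93 (adjusted p = 4.1e-06) and Dok2, an inhibitory adaptor, by 1.96 (adjusted p = 4.29e-05). Of 5 ERK feedback inhibitors tested, 2 fell in RNY1+/+ EVFx, 1 rose and 1 fell in RNY1-/- EVFx, 1 rose in RNY1+/+ ProteinFx and none was called in RNY1-/- ProteinFx by edgeR, with 1 passing by adjusted p alone. Dusp6, a phosphatase of ERK, fell in RNY1+/+ EVFx (-1.66, SE 0.18, adjusted p = 1.97e-05). The diacylglycerol kinases remove the lipid that most RasGRP proteins bind. Of them Dgkd fell in RNY1+/+ ProteinFx (-1.35, SE 0.14, adjusted p = 1.56e-05), Dgkz fell in RNY1-/- ProteinFx (-1.06, SE 0.25, adjusted p = 0.00931) and Dgkh rose in RNY1-/- EVFx (1.23, SE 0.17, adjusted p = 0.000101). Dgkz and Dgkh were no longer called with GC and length trends removed (-0.47 and 0.94), and neither was Dok2 in RNY1+/+ ProteinFx (-0.51 in place of -1.06, and -0.95 without PBS replicate 2) or in RNY1-/- ProteinFx (-0.78 in place of -1.28). Dgkz was also lost without PBS replicate 1 (-0.92) or 2 (-0.94) and without RNY1-/- ProteinFx replicate 3 (-0.99).

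Between the fractions of RNY1+/+ donors, 9 of 62 pathway genes passed (4 higher and 5 lower in ProteinFx). Gab1 was higher in ProteinFx (2.48, SE 0.17, adjusted p = 2.08e-08), as were Dusp6 (1.49, SE 0.17, adjusted p = 2.98e-06) and Rasa1, a GTPase-activating protein of Ras (1.36, SE 0.09, adjusted p = 2.07e-08). The GTPase Rras was lower (-1.30, SE 0.13, adjusted p = 7.5e-07), and its value was -0.76 and not called with GC and length trends removed.

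Between the genotypes in ProteinFx, no pathway gene was called by edgeR or DESeq2 among the 63 tested, with 21 at an unadjusted p under 0.05. By adjusted p alone 8 differed, 1 higher and 7 lower. Of the 5 ERK feedback inhibitors tested, 3 were lower, and these are named after their values were seen. Spred1 was at -0.61 (SE 0.12, edgeR adjusted p = 0.0101), Spred2 at -0.80 (SE 0.18, adjusted p = 0.0211) and Dusp6 at -0.71 (SE 0.17, adjusted p = 0.0258). Spred1 passed under each alternative run. Spred2 did not pass without RNY1-/- ProteinFx replicate 1 (-0.75) or 2 (-0.67) or RNY1+/+ ProteinFx replicate 4 (-0.64). Dusp6 did not pass without RNY1-/- ProteinFx replicate 1 (-0.72) or 2 (-0.72), without RNY1+/+ ProteinFx replicate 2 (-0.74), 3 (-0.65) or 4 (-0.61), or when scaled by total counts (-0.62). In EVFx, 1 of 60 pathway genes was called, the GTPase Hras, lower in RNY1-/- EVFx (4.16 ± 0.513 against 10.7 ± 1.74 CPM, -1.28, SE 0.17, adjusted p = 0.000217). It too was named after its value was seen, and it was at -0.87 and not called with GC and length trends removed. The difference between the genotype effects passed the limits for 4 of 61 pathway genes, where 7.79% of all genes did, and for 1 of them without RNY1-/- ProteinFx replicate 2.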

How the data were processed

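Macrophage RNA was sequenced from oligo(dT) primers with unique molecular identifiers in 20 libraries. Per the methods and processing notes, the authors' provider used fastp 0.24.0, STAR 2.7.11, UMIcollapse 1.1.0 and featureCounts (Subread 2.1.1) with the GRCm39 genome, and the annotation release is not given in the sources used here. The authors deposited expected counts per gene without normalization, in which reads mapping to several places are shared as fractions, and CPM over each library's total. Each column was matched to its treatment and replicate by library name.

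Here, counts were rounded and fitted with edgeR 4.0.16 (R 4.3.3) over the 8 libraries of 2 groups. Genes passed filterByExpr and a mean of 3 CPM, scaling was TMM, and adjustment was Benjamini-Hochberg over all genes tested. Each SE was obtained by dividing the log2 fold change by the root of the F statistic. The difference between genotype effects used 16 libraries. GC content and length came from the longest GENCODE transcript of each gene on GRCm38 (matched by gene identifier for 96.7% to 97.1% of genes) and were removed with splines of 4 degrees of freedom. The members, the gene lists and the alternatives were chosen with earlier results of these data known. Pathway genes were named as the 3 largest rises and 3 largest falls called in each comparison, with a mean of 10 CPM or more and groups that did not overlap, and 1 of them is not reported here. Levels for likeness were log2 CPM with a prior count of 2. Alternatives were DESeq2 1.42.0, total counts, other filters, all 20 libraries in 1 fit, adjusted p alone, trend removal, a replicate block and left-out libraries. The scripts were checked on simulated data. Floors and intervals cover counting error only.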

Additional observations from a re-analysis of the deposited data

Results flagged for a closer look

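Among 50 sets of 4 libraries (10 members in 5 groups), 2 held a library far from the other 3 by Dixon's criterion, which chance alone meets in about 1 set in 20. Rasgrp2 was lowest in PBS replicate 3, at 3.89 CPM, and Rapgef1 was highest in RNY1+/+ EVFx replicate 4, at 47.1 CPM. Rapgef1 lay above each PBS library in RNY1+/+ EVFx (log2 fold change 1.07) and below each of them in RNY1+/+ ProteinFx (-0.53, or -0.12 with GC and length trends removed). The groups compared directly are given above (-1.58, or -1.24 with the trends removed), as a description without a test.

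For pathway genes that are not members, the log2 genotype effect in ProteinFx minus that in EVFx differed from 0 by edgeR's quasi-likelihood adjusted p in 21 of 61 tested (7 higher and 14 lower), where 33% of all genes did. Among the genes named in the text these were, in order of size, Mapk3 (1.25, adjusted p = 0.00928), Hras (1.21, adjusted p = 0.0131), Sipa1, a GTPase-activating protein of Rap (1.15, adjusted p = 0.00561), Spred2 (-1.04, adjusted p = 0.00383), Dusp6 (-0.92, adjusted p = 0.0123), Dgkh (-0.91, adjusted p = 0.00221), Rras (0.79, adjusted p = 0.0206), Spred1 (-0.74, adjusted p = 0.00307), Dgkz (0.56, adjusted p = 0.0162), Map2k1 (-0.56, adjusted p = 0.00657) and Rasa1 (-0.54, adjusted p = 0.0405). The positive differences of Hras, Sipa1 and Mapk3 came with lower levels in RNY1-/- EVFx (-1.28, -0.94 and -0.79), and the difference itself was not fitted with GC trends removed. The negative differences of Spred1, Spred2 and Dusp6 came with lower levels in RNY1-/- ProteinFx. Hras did not pass without RNY1-/- ProteinFx replicate 2 (0.80).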

How the results depend on the processing

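No result changed sign among called values under the alternatives run. By adjusted p alone, member counts rose from 5 to 9 in RNY1-/- EVFx, from 5 to 8 in RNY1+/+ ProteinFx, from 3 to 6 in RNY1-/- ProteinFx, from 0 to 4 between genotypes in EVFx and from 2 to 6 between fractions, and pathway counts to 31, 43, 33 and 21 against PBS (RNY1+/+ EVFx, RNY1-/- EVFx, RNY1+/+ ProteinFx, RNY1-/- ProteinFx), 26 between genotypes in EVFx, 8 in ProteinFx and 42 between fractions. With no filter, 5 members were called in RNY1-/- ProteinFx against PBS, Rasgrp1 and Rasgrp4 being added, where 8.1% of all genes were called. Without RNY1-/- ProteinFx replicates 1 and 2, members called between genotypes in ProteinFx fell from 4 to 2, and pathway genes against PBS rose from 7 to 13. The share of all genes called went from 1.82% to 1.73% between these genotypes and from 14.3% to 21.2% against PBS. Without replicates 3 and 4, pathway genes were 3 against PBS and 2 between genotypes, where 8.4% and 3.86% of all genes were called. Between genotypes in EVFx the pathway count of 1 became 2 with total counts or no filter and 0 with GC and length trends removed, with or without the block.

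Leaving out 1 library at a time, members called ranged from 5 to 7 in RNY1+/+ EVFx, stayed at 5 in RNY1-/- EVFx, ranged from 4 to 6 in RNY1+/+ ProteinFx, stayed at 3 in RNY1-/- ProteinFx, were 0 and 3 to 4 between genotypes in EVFx and ProteinFx, and 2 between fractions. The share of all genes called in these runs was 16.1% to 17.8%, 20.2% to 27.2%, 18.9% to 26.4% and 11.3% to 18.7% against PBS. It was 0.962% to 3.29% between genotypes in EVFx, 1.1% to 2.38% in ProteinFx and 11.3% to 14.8% between fractions. Pathway genes ranged from 15 to 17, 14 to 17, 9 to 14 and 6 to 10 against PBS, from 1 to 2 between genotypes in EVFx (2 without RNY1+/+ EVFx replicate 2), were 0 in ProteinFx, and from 8 to 10 between fractions. The difference between genotype effects ranged from 1 to 5 pathway genes, with 1 without RNY1-/- ProteinFx replicate 2.

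Same-numbered libraries correlated over 0.1 in 21 of 40 pairs (r from -0.41 to 0.66) and the best match had the same number in 14 of them, so the numbers do not pair the samples over the 5 groups. For PBS and RNY1-/- EVFx all 4 pairs were over 0.1 (0.14 to 0.39), and the block kept the same 5 members called there. All 4 were also over 0.1 for RNY1-/- EVFx and RNY1-/- ProteinFx (0.22 to 0.42), which both enter the difference between genotype effects. That difference passed the limits in 7.71% of all genes with the block and 7.79% without it. For PBS and RNY1-/- ProteinFx 3 of 4 were over 0.1 (0.53 to 0.66), and the block moved genes passing by adjusted p alone from 35.7% to 60.9%. With the replicate block, members called remained 6, 5, 5 and 3 against PBS, 0 and 4 between genotypes and 2 between fractions, and pathway genes were 16, 16, 12 and 7, 1 and 0, and 9. The shares of all genes called were 16.4%, 22.8%, 21% and 15.6%, 2.18% and 1.65%, and 13.7%.

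Depth limits Rasgrp1 in PBS and Rasgrp4, at or near 3 counts per library, and the 4 libraries of RNY1-/- ProteinFx, of which replicate 3 is the shallowest, limit the comparison of genotypes in ProteinFx.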
